A study of Drosophila melanogaster with 4 samples.

Results

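The genes hts, kel, cher, qua, sn, chic and Src64B build the ring canals and the actin cytoskeleton of nurse cells in the Drosophila melanogaster ovary. They were listed by symbol for these known roles and not for a measured value, and they make up 7 of the 13945 protein-coding genes annotated on the main chromosome arms. Their 20 annotated start sites form 17 of 17154 promoters, where start sites of a gene within 500 bp of each other count as 1 promoter and promoters are numbered P1, P2 and so on along the gene. A peak was assigned to a promoter when it shared at least 1 base with the window reaching 500 bp to either side of its start sites, and the strongest such peak of each library gave the promoter's value. H3K4me3, trimethylation of lysine 4 of histone H3, had been profiled in whole ovaries by ChIP-Seq to ask how the mark is distributed once its demethylase Lid (KDM5) is depleted from the female germline. Control KD females (MTD-Gal4>+) carried the driver and an attP2 insertion that holds no hairpin RNA. In lid KD females (MTD-Gal4>shRNA lid) the same driver was combined with a short hairpin RNA against lid at attP2, so that MTD-Gal4 is shared by both groups. The genotypes in the paper also differ in the markers of 1 X chromosome, y v in the control and y sc v in lid KD. There were 2 libraries per group, named here control 1, control 2, lid KD 1 and lid KD 2 after their replicate numbers, each from pooled ovaries. The labels state an age of 3 days for the females of every library in one field and of 0 to 1 day, as virgins, in another. MTD-Gal4 drives expression in germ cells, so the follicle cells and muscle of the ovary keep lid, and in this mixed tissue fewer cells of a type and less of the mark per cell cannot be told apart.

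In each egg chamber the oocyte is connected to its sister nurse cells by ring canals, bridges that are left when germ cell divisions stay incomplete and that are then lined with filamentous actin. Late in oogenesis the nurse cells contract and empty their cytoplasm into the oocyte through these canals, while actin bundles keep the nurse cell nuclei from blocking them. Hts, the fly adducin, gives a fusome protein and a ring canal protein, Kelch (kel) is the substrate adaptor of a Cullin 3 ubiquitin ligase that keeps the canal lumen open, and Cheerio (cher) is the filamin of the canal wall. Quail (qua), a villin-like protein, and Singed (sn), the fly fascin, bundle the actin of nurse cells, Chickadee (chic) is profilin, and Src64B is a Src-family kinase required for ring canal growth. H3K4me3 is deposited on the nucleosomes just downstream of start sites in use, so its peaks show which alternative promoters of a gene are marked in the tissue.

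The start regions of kel, of all 5 cher promoters, of sn P2 and of both chic promoters are printed because they contrast the most strongly marked start, a gene with a marked start among unmarked ones, and a pair of starts under shared peaks. Each runs 5′ to 3′ on the strand of the gene from 100 bases before the start site to 30 bases from it onwards, read from the RefSeq genome of Release 6 (dm6). On the minus strand lie kel P1 at chr2L:18138054-18138183, cher P1 at chr3R:17125360-17125489, cher P2 at chr3R:17122653-17122782, cher P3 at chr3R:17119053-17119182, cher P4 at chr3R:17098778-17098907 and cher P5 at chr3R:17095518-17095647. The chic promoters are also on the minus strand, with P1 at chr2L:5980989-5981118 and P2 at chr2L:5980072-5980201, while sn P2 is on the plus strand at chrX:7969603-7969732. Capitals mark exact matches to the TATA box (TATAAA) and the GAGA motif (GAGAG), searched on both strands, where neighbouring GAGAG matches can overlap in a repeat.
kel P1: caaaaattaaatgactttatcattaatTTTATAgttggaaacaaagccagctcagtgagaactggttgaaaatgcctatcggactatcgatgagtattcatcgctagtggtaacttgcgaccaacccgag
cher P1: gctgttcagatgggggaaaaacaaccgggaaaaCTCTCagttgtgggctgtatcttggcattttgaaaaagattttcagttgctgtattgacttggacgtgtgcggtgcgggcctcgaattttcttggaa
cher P2: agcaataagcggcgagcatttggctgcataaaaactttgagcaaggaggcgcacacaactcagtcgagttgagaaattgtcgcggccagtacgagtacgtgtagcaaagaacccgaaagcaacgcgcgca
cher P3: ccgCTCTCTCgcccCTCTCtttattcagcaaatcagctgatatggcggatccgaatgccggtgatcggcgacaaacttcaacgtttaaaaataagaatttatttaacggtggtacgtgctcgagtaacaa
cher P4: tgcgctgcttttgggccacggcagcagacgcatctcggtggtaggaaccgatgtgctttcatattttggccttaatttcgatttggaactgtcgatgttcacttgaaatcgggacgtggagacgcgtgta
cher P5: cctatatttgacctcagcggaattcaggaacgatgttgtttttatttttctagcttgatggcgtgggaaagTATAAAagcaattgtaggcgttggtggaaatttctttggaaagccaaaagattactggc
sn P2: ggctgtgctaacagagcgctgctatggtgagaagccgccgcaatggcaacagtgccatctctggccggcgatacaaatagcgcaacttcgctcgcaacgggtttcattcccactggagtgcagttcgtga
chic P1: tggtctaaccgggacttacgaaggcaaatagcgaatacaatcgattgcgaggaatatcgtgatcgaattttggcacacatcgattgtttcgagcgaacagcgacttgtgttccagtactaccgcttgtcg
chic P2: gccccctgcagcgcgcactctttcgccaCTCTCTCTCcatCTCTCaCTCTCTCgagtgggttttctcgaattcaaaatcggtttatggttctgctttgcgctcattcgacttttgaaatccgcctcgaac

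GAGAG was found in 6 of the 17 promoters over the same stretch (hts P2, hts P3, cher P1, cher P3, chic P2 and Src64B P1), and in 18.3% of all promoters. Among the cher starts it stands as a short repeat upstream of P3, which was marked, and as 1 match upstream of P1, which was not. TATAAA was found at kel P1 and cher P5, and in 20.3% of all promoters. The element DRE (TATCGATA on either strand) was found at hts P1 only, and in 6.28% of all promoters, and an initiator (TCAGT on the strand of the gene, with its A within 5 bases of the start) at qua P1 and Src64B P2, and in 11.1%. These matches describe the letters and are no evidence of a bound factor. The GC content of the windows had a median of 41.4% (36.4 to 49.7%) at the 10 promoters with a peak in every library and of 40.1% (35.7 to 46.8%) at the 6 without any peak.

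Each library has its own list of peaks, with 12087, 25302, 12832 and 13501 entries in control 1, control 2, lid KD 1 and lid KD 2. The fold enrichment of a peak is the ratio of its summit pileup to the background that the peak caller set at that place. Pileup and background were solved from the deposited values, and the pileup over the background of the whole genome is called summit coverage here. The background of the genome, the measure of depth that such lists allow, was 60.1, 48.4, 55.5 and 56.6 fragments. Over 5001 promoters the summit pileups of the lid KD libraries differed by 1.02 counting errors (SD), against 3.04 for the control pair and 2.74 to 3.75 for pairs across the groups. The lid KD pair thus differed by no more than sampling noise and was counted as 1 sample. The p-values measure only the spread between these samples, in practice that of the controls. The fits below (limma) moderate this spread with that of all promoters fitted. For summit coverage the SE of 0.42 given below is such a pooled value, the same at each promoter, and not the spread at that promoter. The log2 differences below are from values centred on the median of each library over all promoters fitted, for fold enrichment and for summit coverage alike. That centring takes out offsets shared by all promoters. On the log2 scale control 2 lay 0.28 above control 1 in fold enrichment and 0.42 in summit coverage. The lid KD libraries lay 0.04 above control in fold enrichment and 0.33 in summit coverage, so in both measures the controls differed more from each other. An exact permutation test of 2 libraries against 2 cannot give a p below 0.33. The cell types present were checked through fixed markers: 4 of 6 germ line genes had a promoter peak in every library, vas had none, and aub had one in both lid KD libraries only. All 6 follicle cell genes were marked in every library, as were 1 of 5 muscle sheath genes (Tm2) and 1 of 6 genes not expected in the ovary (elav), while nSyb of the same list had a peak in every library but control 1. The part of other cell types in the values below was not tested.

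Each of the 7 genes carried H3K4me3 on at least 1 promoter in all 4 libraries, as did 48.2% of all genes. Of the 17 promoters, 10 had a peak in all 4 libraries, 6 had none in any library and 1 had a peak in a single library, whereas 43.6% of all promoters had a peak in all 4. The marked promoters were hts P1, P2 and P3, kel P1, cher P3, qua P1, sn P2, chic P1 and P2, and Src64B P1. The unmarked ones were cher P1, P2, P4 and P5, qua P2 and Src64B P2. The exception was sn P1, which lies inside sws, a gene on the opposite strand, and had a peak only in control 2, the longest list, with a fold enrichment of 1.73. Of 2106 genes with more than 1 promoter, 27.6% had both a promoter marked in every library and one without any peak, as did 3 of the 6 such genes here (cher, qua and Src64B). No promoter of the 7 genes was marked in the 2 controls alone, as 0.834% of all promoters were, or in the 2 lid KD libraries alone, as 0.315% were. The same 10 promoters were thus called in both groups.

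**Figure D1:**
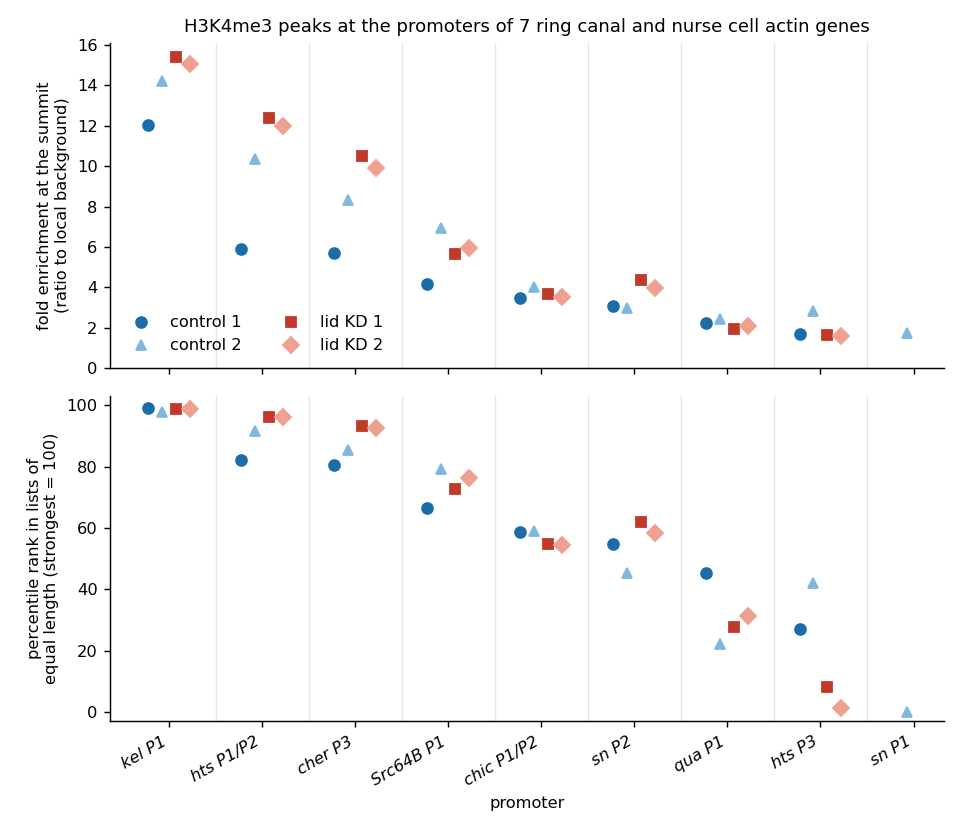
Fold enrichment (upper panel, ratio) and percentile rank within lists of equal length (lower panel, 100 is the strongest peak) of the peak at each promoter, with 1 point per library. The peak at kel P1 was the strongest in every library, and at hts P1/P2 and cher P3 control 1 gave the lowest fold enrichment. In rank the libraries lay farthest apart at hts P3, from 1.22 to 42.0.

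kel carried the strongest mark of the group. Its only promoter had a fold enrichment of 12.1 in control 1, 14.2 in control 2, 15.4 in lid KD 1 and 15.1 in lid KD 2, against a median over all promoters with a peak of 4.96 to 5.68. Both lid KD values lay above both control values. In lists cut to 12087 peaks each, so that ranks are comparable, it stood at the 99.2, 97.6, 98.7 and 98.8 percentile in the same order, and here the groups overlapped. Summit coverage was 20.4, 34.2, 33.1 and 32.4 times the genome background, so control 2 was as high as lid KD and control 1 stood apart. The log2 difference of lid KD minus control was 0.18 (SE 0.21) in the limma fit over 5539 promoters, with a Benjamini-Hochberg adjusted p of 0.998. The peak in lid KD 1 covered chr2L:18137401-18138069, and in all 4 libraries the peak began within 14 bp of the start site and reached into the gene. The summit lay in coding sequence, 358 to 391 bp downstream. Between 77.4% and 88.6% of the peak lay in kel exons in the 4 libraries.

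hts was marked at its 5′ end by a peak that P1 and P2 share (chr2R:19423335-19424904 in lid KD 1). Its fold enrichment was 5.92 in control 1, 10.4 in control 2, 12.4 in lid KD 1 and 12.0 in lid KD 2, with ranks of 82.2, 91.7, 96.1 and 96.1. The groups did not overlap, but after centring the controls differed from each other by 0.52 on the log2 scale, and lid KD lay 0.33 above control 2. Control 1 was also the library in which the local background was raised, at 1.56 times that of the genome against 1.00 to 1.02 in the others. Summit coverage, which leaves this background out, was 9.28, 10.5, 12.7 and 12.4. The log2 difference of fold enrichment was 0.59 (SE 0.30; limma, adjusted p = 0.998) and that of summit coverage, after centring, 0.02 (SE 0.42; limma, adjusted p = 0.9998). The summit lay in an intron 384 to 408 bp downstream of P1 in all 4 libraries, which is upstream of P2, so the peak cannot be divided between the 2 starts. The gene CalpA starts 210 bp from P1 in the other direction. A separate peak near its start was called in control 1 only, with a fold enrichment of 2.06, and its part in the background there was not tested.

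The internal promoter hts P3 held one of the weakest peaks, with a fold enrichment of 1.69 in control 1, 2.84 in control 2, 1.63 in lid KD 1 and 1.58 in lid KD 2. Its pileups of 90 to 139 fragments carry counting errors of 8.48 to 10.5%. The ranks were 27.0, 42.0, 8.10 and 1.22, which made it the only promoter of the 7 genes whose lid KD ranks lay at least 10 percentile points below both controls. The log2 difference was -0.49 (SE 0.28; limma, adjusted p = 0.998). On the same centred scale lid KD differed by -0.26 from control 1 and by -0.73 from control 2. The call by rank was lost when peaks needed a q of at most 0.01 or when ranks followed the p-value or the pileup. The summits lay 397 to 686 bp into the gene from P3, mostly in coding sequence, and other weak peaks without a start site occurred along hts.

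cher was marked at 1 of its 5 promoters. The peak at P3 (chr3R:17118591-17119177 in lid KD 1) had a fold enrichment of 5.68 in control 1, 8.31 in control 2, 10.5 in lid KD 1 and 9.89 in lid KD 2, with ranks of 80.5, 85.3, 93.2 and 92.4. Both lid KD libraries lay above both controls in fold enrichment, rank and, before centring, summit coverage. After centring the controls differed from each other in fold enrichment by 0.26 on the log2 scale. The log2 difference between the groups was 0.53 (SE 0.23; limma, adjusted p = 0.998), which did not pass the test, although it had the smallest unadjusted p of the group (0.0815). Local background equalled that of the genome in all 4 libraries, and summit coverage was 5.76, 8.46, 10.7 and 10.0. The log2 difference of summit coverage, after centring, was 0.24 (SE 0.42; limma, adjusted p = 0.9998). The summit lay 177 to 214 bp downstream of the start in the sequence printed for cher P3, in an exon that is coding or 5′ UTR depending on the transcript.

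A further peak within cher had its summit 942 to 959 bp downstream of P3, outside the window. It had a fold enrichment of 3.26 in control 1, 4.42 in control 2, 7.22 in lid KD 1 and 7.27 in lid KD 2. Both lid KD values lay above both controls, as they did at P3. These values are not centred, no fit was made for this peak, and the lid KD pair lay close together over all promoters. The peaks farther into the gene had a summit coverage of 2.63 or less past 2 kb from P3 in every library, and none lay over P4 or P5. The 2 upstream promoters P1 and P2, from which the longer transcripts start, had no peak in any library. Absence of a peak in these lists says that no enrichment passed the q of 0.1, not that the mark was absent.

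**Figure D2:**
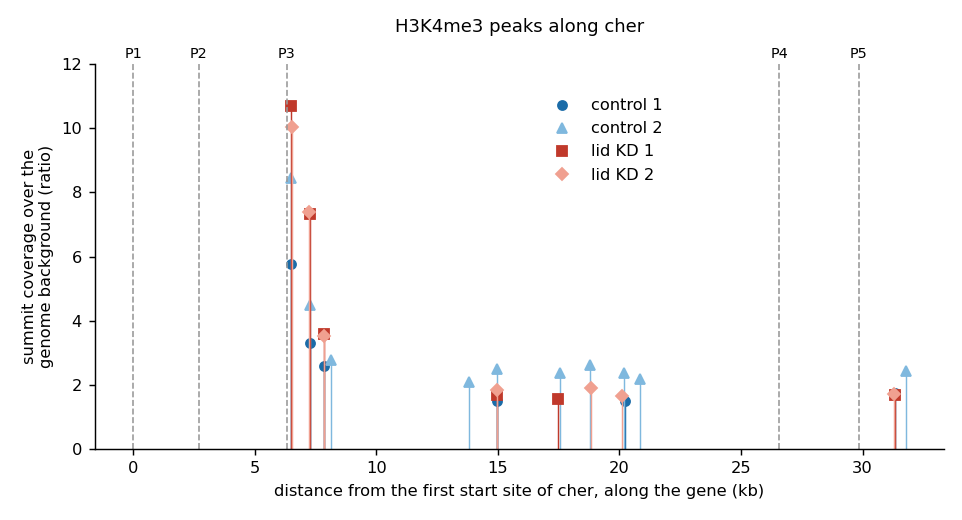
Summit coverage (pileup over the background of the genome, a ratio) of every peak inside cher against its distance in kb from the first start site, with 1 marker per library and dashed lines at the 5 promoters. The highest peaks of all 4 libraries stand at P3, from 5.76 in control 1 to 10.7 in lid KD 1, and none stands at P1, P2, P4 or P5.

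Src64B was marked at P1, which joins 2 start sites, and not at P2. The peak with its summit inside this window had a fold enrichment of 4.17 in control 1, 6.96 in control 2, 5.63 in lid KD 1 and 5.94 in lid KD 2, and the lid KD values lay between the controls. Its summit was in the 5′ UTR, 131 to 161 bp downstream of the first start site. The log2 difference was 0.08 (SE 0.26; limma over promoters with the summit inside the window, adjusted p = 0.9996). The window also touches a peak at the start of HDAC1, which is transcribed in the other direction from 538 bp away, and of lncRNA:CR45438, the start nearest to its summit. This neighbouring peak had a fold enrichment of 6.77, 8.19, 8.51 and 8.53. In 3 libraries this was the strongest peak touching the window, so the value by strongest peak does not compare one site there, and the values of the gene's own peak are used.

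chic was marked at both promoters by a shared peak, which in control 1 was 2189 bp wide and covered the starts of both. In the other libraries it covered the starts of P2 and began 33 to 47 bp downstream of P1. The peak cannot be divided between the 2 promoters. Its fold enrichment was 3.47 in control 1, 4.04 in control 2, 3.65 in lid KD 1 and 3.53 in lid KD 2, and the groups overlapped. Ranks were 58.8, 59.0, 54.7 and 54.4, lower in both lid KD libraries by less than 5 percentile points. These moderate ratios stood on a high background: summit coverage was 14.1, 19.6, 19.3 and 17.8, the second highest of the group after kel, and the local background was 4.05 to 5.26 times that of the genome. In the 3 libraries other than control 1 a second, separate peak covered no annotated start of chic. It lay 636 to 649 bp downstream of the start printed for chic P2. Its fold enrichment was 3.29 in control 2, 3.78 in lid KD 1 and 3.60 in lid KD 2. The gene eIF4A starts 746 bp away in the other direction and has a peak of its own. The log2 difference at P1 was -0.11 (SE 0.21; limma, adjusted p = 0.998).

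**Figure D3:**
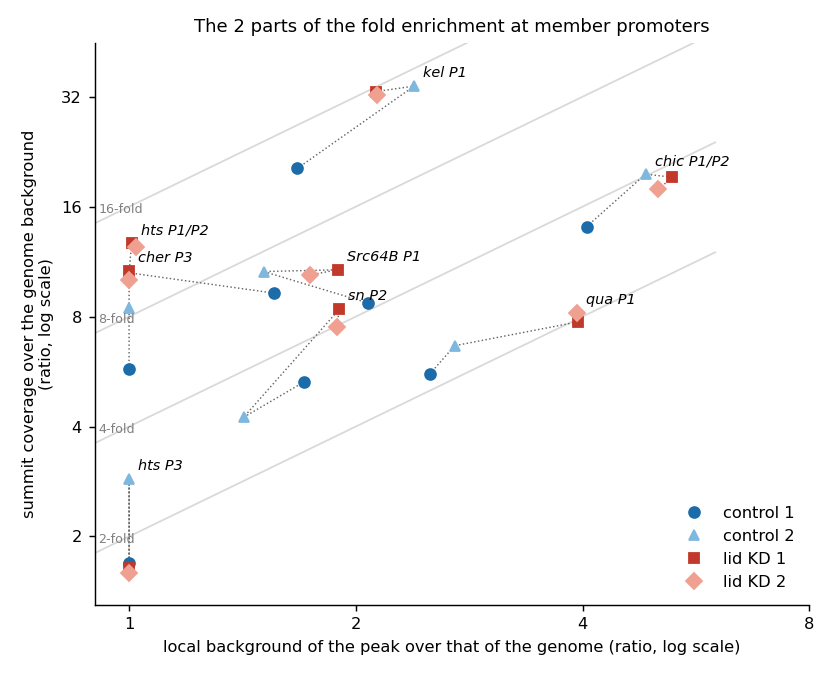
Summit coverage (vertical, log scale) against the local background of the peak (horizontal, log scale), both as ratios to the genome background, with 1 point per promoter and library, dotted lines joining the points of a promoter and grey lines of equal fold enrichment. chic P1/P2 and qua P1 sit at the right, on a background of 2.51 to 5.26 times that of the genome, whereas cher P3 and hts P3 sit at 1.

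sn was marked at P2, the start of 3 of its transcripts, where the fold enrichment was 3.08 in control 1, 2.96 in control 2, 4.38 in lid KD 1 and 3.94 in lid KD 2. Both lid KD libraries lay above both controls, and after centring control 2 was 0.34 below control 1 on the log2 scale. Ranks were 54.8, 45.3, 62.1 and 58.5, again without overlap. Summit coverage was 5.31, 4.24, 8.39 and 7.49, without overlap before centring. Over all promoters, however, coverage was 0.33 higher in lid KD than in control, and 0.42 higher in control 2 than in control 1 (log2). The log2 difference of fold enrichment was 0.42 (SE 0.25; limma, adjusted p = 0.998). That of summit coverage, after centring, was 0.41 (SE 0.42; limma, adjusted p = 0.9998). The summit lay in the 5′ UTR of sn, 155 to 395 bp downstream of the start printed for sn P2. The strongest peak inside the sn gene was another one, at the start of sws on the opposite strand, with a fold enrichment of 4.88, 7.0, 7.31 and 7.10.

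qua had the weakest of the 5′ peaks, at P1, with a fold enrichment of 2.21 in control 1, 2.45 in control 2, 1.96 in lid KD 1 and 2.07 in lid KD 2. In summit coverage the order was the reverse, with 5.57, 6.66, 7.74 and 8.18, so that lid KD was lower in the ratio and higher in the pileup. The local background moved with this, at 2.51 times the genome in control 1, 2.71 in control 2, 3.95 in lid KD 1 and 3.94 in lid KD 2. The log2 difference was -0.25 (SE 0.21) for fold enrichment and, after centring, 0.06 (SE 0.42) for summit coverage (limma, adjusted p = 0.998 and 0.9998). Ranks were 45.4, 22.3, 27.8 and 31.3 and overlapped. The antisense RNA gene CR45715 starts within the same window on the other strand, and the peak cannot be assigned to one of them.

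**Figure D4:**
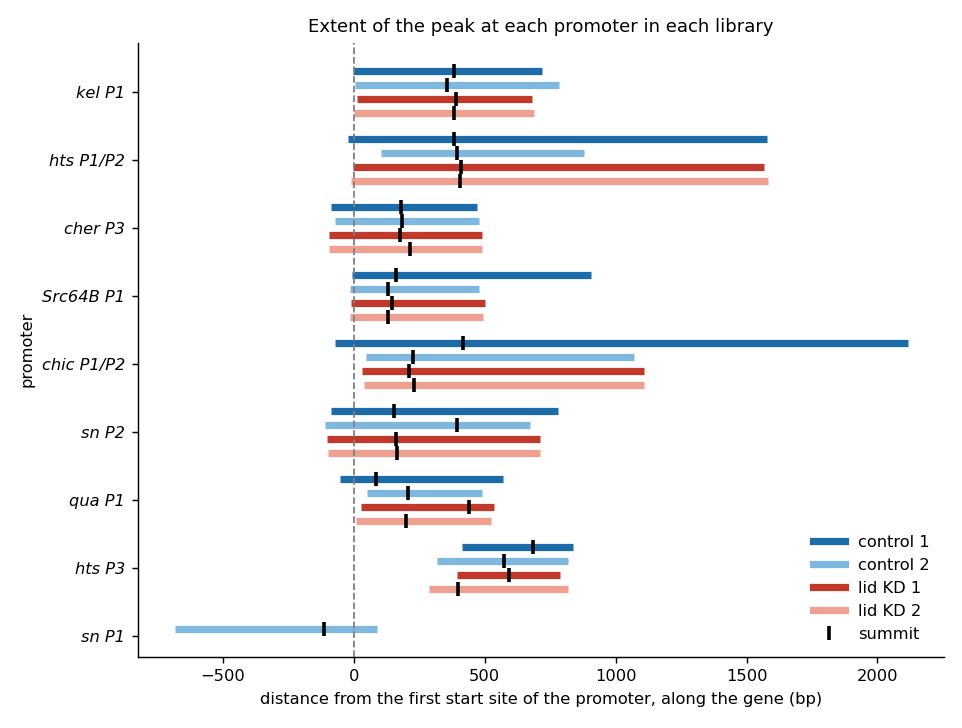
Extent of each peak (bars, 1 per library) and its summit (black tick) as the distance in bp from the first start site of the promoter, positive in the direction of transcription. The summits lie downstream of the start at all promoters shown but sn P1, and the bar of control 1 is longest at chic P1/P2, at 2189 bp.

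Apart from hts P2, hts P3, chic P2 and sn P1, the peaks began near the start site and extended into the gene. At hts P3 they began 288 to 414 bp downstream of the first start and covered no start. The sn P1 peak lay mostly upstream, and hts P2 and chic P2 lie inside the peak shared with P1. Where a summit lay inside the window, it was downstream of the first start at 7 of 9 promoters of the 7 genes in control 1, 8 of 11 in control 2, and 8 of 10 in each lid KD library, and at 83.7, 78.5, 83.9 and 83.5% of all promoters. Upstream summits belonged to promoters under a peak of a neighbouring start, hts P2 and chic P2, and to sn P1. Widths differed more between promoters than between groups. The widest were the shared peak of hts, at 1602, 774, 1570 and 1596 bp, and that of chic, at 2189, 1023, 1076 and 1070 bp, and in both cases the outlying width was that of a control. cher P3 was wider in both lid KD libraries, at 587 and 583 bp against 557 and 550 bp, as were 22.0% of all promoters with a peak in every library. kel P1 was narrower in both, at 669 and 689 bp against 724 and 779 bp. chic P2 was also narrower by its strongest peaks, which are not the same site in each library. Of all promoters with a peak in every library, 13.0% were narrower. The exact two-sided permutation p was 0.33 for the width of kel P1 and of cher P3, the smallest possible here.

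Across the 10 promoters with a peak in every library, 0 ranked higher in lid KD by at least 10 percentile points and 1, hts P3, ranked lower. The shares were 1.50% and 1.40% over the 7202 promoters ranked in all 4 lists of equal length. Without the margin, 5 ranked higher in both lid KD libraries than in both controls and 3 lower, against 18.0% and 39.8% of the same 7202 promoters. The 5 were hts P1, hts P2, cher P3, sn P2 and Src64B P1, of which hts P1 and P2 are 1 peak and Src64B P1 rests on the peak at HDAC1 and lncRNA:CR45438. The 3 were hts P3, chic P1 and chic P2. With 2 libraries a side and shared peaks these counts are small, and no test was made on them. The limma fit called 0 of 5539 promoters higher and 0 lower in lid KD (0% and 0%), with 120 at an unadjusted p under 0.05, and none of these was a promoter of the 7 genes. At the 8 distinct sites of the 7 genes the log2 difference ran from -0.49 to 0.59 with a median of 0.13, against -0.00 over all promoters fitted. The unadjusted p ran from 0.0815 to 0.761. After centring the controls differed from each other by less than the group difference at 7 of the 8 sites, the exception being Src64B P1. As deposited, the controls differed in fold enrichment by more than the fitted group difference at 6 of the 8 sites. The same shares over all promoters were not counted, so neither count is read as a result about these genes. Control 2 lay above control 1 at 7 of the 8 sites in fold enrichment as deposited and at 4 of the 8 after centring. Data were also simulated with normal noise of an assumed spread and 200 changed promoters. There the 3-sample fit recovered 84.5% of promoters changed by 2 on the log2 scale and 2.06% of those changed by 1. In the deposited data the largest difference, 2.41, was not called, so these shares need not hold for them. The differences at the 7 genes were smaller than 1, a size that the fit mostly missed even in the simulation.

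In fold enrichment the strongest promoters kept their order across the libraries, and some of the weaker ones changed places. kel P1, the hts peak and cher P3 were the highest in fold enrichment, in that order, in all 4 libraries, followed by Src64B P1, and qua P1 came below them and below chic and sn in each library. chic and sn changed places, with chic above sn in both controls and sn above chic in both lid KD libraries. hts P3 lay below qua P1 in control 1, lid KD 1 and lid KD 2 and above it in control 2. By summit coverage chic came directly after kel in every library. Neighbouring promoters were often closer than the spread between the controls, as at hts P1 with 5.92 and cher P3 with 5.68 in control 1.

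Of 28 other genes of the same structures, 26 had a promoter peak in all 4 libraries (92.9%), against 48.2% of all genes, and 0 were called by the fit. In the fusome and ring canal list, 10 of 11 genes were marked in every library. The strongest by mean rank was tmod (95.1), which encodes tropomodulin, and the weakest was Ank, an ankyrin gene, with no peak in any library. Btk29A, a Tec-family kinase gene required for ring canals, was the 1 gene of the 28 ranked higher in lid KD by the margin, as were 1.24% of all genes with a ranked peak in every library, each by its strongest promoter, at 5.92-fold over background in both controls and 11.0-fold in both lid KD libraries. Its log2 difference of 0.85 (SE 0.24; limma, adjusted p = 0.998) was larger than that at any promoter of the 7 genes.

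Among the 17 genes of actin assembly and turnover, 16 were marked in every library, and Arp2, a subunit of the Arp2/3 nucleator, ranked highest on average (98.8). The formin gene capu had peaks of 4.34, 4.19 and 3.97 in control 1, lid KD 1 and lid KD 2 and none at that promoter in control 2. The weakest was tsr, the cofilin gene (44.8), whose fold enrichment was 2.91 in control 1, 3.49 in control 2, 2.35 in lid KD 1 and 2.15 in lid KD 2. It was the 1 related gene ranked lower by the margin, as were 1.22% of all such genes, with a log2 difference of -0.55 (SE 0.21; limma, adjusted p = 0.998). The median log2 difference was 0.17 in the fusome and ring canal list and -0.10 in the list of actin assembly and turnover.

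**Figure D5:**
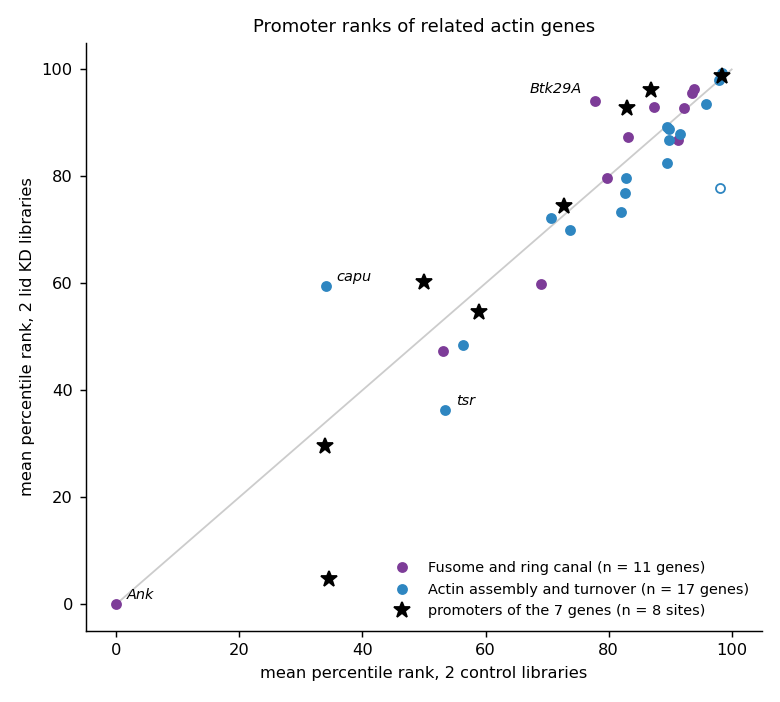
Mean percentile rank of the strongest promoter in the lid KD libraries against that in the controls for the 28 related genes (circles, coloured by list) and for the 8 distinct promoter sites of the 7 genes (stars), with the line of equal rank. The open circle marks a gene whose strongest peaks in the 4 libraries do not share a base, and a gene without a peak in a library counts as 0 there. Btk29A lies above the line and tsr below it, and the lowest star is hts P3, with ranks of 8.10 and 1.22 in lid KD.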

How the data were processed

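H3K4me3 ChIP-Seq was made in 4 ovary libraries, 2 of control KD and 2 of lid KD, grouped by their labels. According to the submitters' processing notes and the study's methods, the authors aligned reads to dm6 with Bowtie2 2.3.3, removed duplicates with Picard 2.17.10 and called peaks per library with MACS2 2.1.1 at a q of 0.1. Whether an input was used is not given in the sources used here. The deposited lists give each peak's fold enrichment (a ratio of summit pileup to local background), its -log10 p-value and -log10 q-value, and its summit as an offset. The deposited score column was not used, nor were lists of merged replicates. A fold enrichment is relative to its own library, so a change shared by all peaks cannot be seen.

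Start sites came from the Ensembl 115 annotation of BDGP6, and sequence from the RefSeq genome of the same assembly, in which 99.8% of 30593 annotated start codons read ATG. Btk29A and nos were matched as Btk and nanos through RefSeq synonyms. Summit pileup and background were solved from fold enrichment and p (Poisson tail) for at least 99.9% of peaks, with 5 to 9 per library left unsolved. On 3000 simulated peaks 100% were recovered. Percentile ranks used the 12087 strongest peaks of each list. Log2 fold enrichment, centred on each library's median, was fitted with limma 3.58.1 (R 4.3.3) over all promoters with a peak in every library that are distinct sets of peaks, on 3 samples, as the lid KD pair was counted as 1. Benjamini-Hochberg adjustment was over all 5539, with a threshold of 0.05. In simulated data 0.169% of unchanged promoters were called. Counting errors cover fragment counts only.

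The members, lists and tests were chosen with earlier results of these data known. Every promoter of the 7 genes is described. A related gene was named where it lacked a peak in a library, was called by the margin or the fit, or was the strongest or weakest of its list. Another list of related genes is not reported here. Alternatives changed the window, q threshold, summit rule, chaining of starts, ranking, margin, scaling, GC correction, block and libraries.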

Additional observations from a re-analysis of the deposited data

How the results depend on the processing

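The number of promoters of the 7 genes with a peak in all 4 libraries, 10, was 9 to 12 under the other windows, the stricter q, the summit rule, the chaining of starts and lists of equal length, and stayed at 10 with any 1 library left out. The number ranked higher in lid KD by the margin, 0, was 1 with a window of 1000 bp (qua P1, through the peak of the neighbour CG15142) and 5 with no margin, and 0 to 4 with 1 library left out, where it was 4 without control 2 and 1 without control 1. The number ranked lower, 1, was 0 with a window of 250 bp, with q at most 0.01, with the summit inside the window, with ranks by -log10 p or by summit pileup, and with a margin of 20 points. It was 2 with starts chained within 100 bp, 3 with no margin, and 1 to 2 with 1 library left out, where it was 2 without control 2. The call at hts P3 thus rests on the settings used. The fit called 0 promoters in either direction, but 2 higher with summit coverage, 2 higher with no centring, and 6 lower with summit coverage and the summit inside the window, an alternative chosen after seeing the data, as was the fit with the summit inside the window. None of these were promoters of the 7 genes. With all 4 libraries and no block, which counts the near-identical lid KD pair as 2 samples, the fit called 0 higher and 0 lower, with 824 at an unadjusted p under 0.05 (14.9%), a smallest adjusted p of 0.182 (limma), and adjusted p of 0.255 to 0.684 at the promoters of the 7 genes. With all 4 libraries and the replicate block the fit called 0 higher and 0 lower (529 at an unadjusted p under 0.05, or 9.55%). The deviations of the same replicate numbers in the 2 groups correlated at 0.049 over 2 pairs. As the lid KD pair differed by no more than sampling noise, this value cannot tell whether libraries of the same number share a batch. Without either control the fit has no residual degrees of freedom and gives values with no test. Over 147 recomputed log2 differences at the 10 promoters, 141 kept their direction, 6 reversed and 0 were called. Many of these could not differ from the main value. Both fits on all 4 libraries return the same estimate, hts P1 and P2 are 1 peak, and the lid KD libraries are near-identical. The count is therefore no measure of how firm a direction is. With summit coverage kel P1 was -0.0162 and qua P1 0.0589, qua P1 was 0.78 with a window of 1000 bp, chic P2 was 0.0374 with GC classes, and with coverage and the summit inside the window qua P1 was 0.0944 and Src64B P1 -0.16. The cause was not tested.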

Other observations

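Just upstream of qua and outside its window lies the peak at the start of CG15142, chosen here after its values were seen. Its summit coverage was 5.24 times the genome background in control 1, 6.99 in control 2, 16.5 in lid KD 1 and 17.4 in lid KD 2, and its fold enrichment was 2.1, 2.60, 4.15 and 4.43. The lid KD libraries lay close together, as they did over all promoters, and above both controls in these values, which are not centred. The local background of the qua P1 peak was higher in the same libraries, and whether the neighbouring peak contributes to it was not tested.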
